A study of Mus musculus with 6 samples.

Results

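Trefoil factors, mucins and gastric-type products are genes whose proteins epithelial cells of the stomach and of metaplastic pancreatic ducts make, release or carry at their surface. The 10 genes listed for this account, Tff1, Tff2, Tff3, Muc1, Muc4, Muc5ac, Muc6, Agr2, Lgals4 and Anxa10, were chosen by name, and their Ensembl identifiers were matched to symbols. Of the 10 genes, 8 were matched to a row among the 56953 genes of the deposited table through their GENCODE vM21 identifiers. Muc4 and Muc6 were not matched in this way, which does not show that the table lacks them, and they were not analysed here.

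The RNA came from cultured cells of 6 mouse lines of pancreatic ductal adenocarcinoma (PDAC), each sequenced as 1 library: KPC850, KPC630, KPC490, KPC469, KPC180 and KPC142. The strain of every line is given as KPC, the usual name of a genetically engineered mouse model of pancreatic cancer. The alleles, sex, age and passage of each line are not given in the sources used here. The study sets apart lines that induce low or high entry of CD8+ T cells into tumours, but the labels do not assign the lines to these classes, so each line stands for itself.

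Library totals ran from 16471558 to 18701274 counts. Levels are in CPM, counts scaled to a common library total with the TMM factors of edgeR, and 1 count was worth 0.0532 to 0.0607 CPM. With 1 library per line there is no replicate error and no test between lines: intervals are 95% intervals for counting error only, so a ratio compares the libraries. Keratin genes and Cdh1 were expressed in every line (Krt8 at 843 to 4180 CPM), while 5 endocrine and 5 immune marker genes stayed under 1 CPM in every line, 4 fibroblast and 3 endothelial ones under 10 CPM, and Epcam reached at most 10.5 CPM. Of 6 acinar genes 4 had 0 counts throughout, and the highest was Cela1 with 20.6 CPM in KPC180.

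As background, trefoil factors are small secreted peptides held together by a compact, disulfide-bonded domain, and they are released together with mucus to protect and repair the epithelial surface. Gel-forming mucins such as Muc5ac build the mucus itself, whereas Muc1 is a transmembrane mucin at the apical surface. In the stomach, pit cells make TFF1 with MUC5AC, and neck and gland cells make TFF2 with MUC6. Ducts of the normal pancreas have little TFF1 or MUC5AC, and preneoplastic pancreatic lesions gain both.

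The RefSeq table of promoter windows, each from 250 bases before to 50 bases after a start site, had an entry for 6 of the 10 genes, and for 3 of those expressed here at 10 CPM or more. The windows of these 3 genes, Muc1, Lgals4 and Anxa10, are shown. The sequences are from RefSeq on GRCm38.p6, read 5′ to 3′ on the gene's strand, at chr3:89228806-89229105 (plus strand) for Muc1, chr7:28833544-28833843 (plus strand) for Lgals4 and chr8:62123144-62123443 (minus strand) for Anxa10. Capitals mark exact matches to the motifs searched.
Muc1: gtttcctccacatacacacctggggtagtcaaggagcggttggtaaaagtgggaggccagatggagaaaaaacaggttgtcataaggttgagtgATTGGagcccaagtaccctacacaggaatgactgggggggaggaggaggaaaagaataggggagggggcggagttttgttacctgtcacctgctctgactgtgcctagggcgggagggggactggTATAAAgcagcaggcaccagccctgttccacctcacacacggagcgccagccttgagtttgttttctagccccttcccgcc
Lgals4: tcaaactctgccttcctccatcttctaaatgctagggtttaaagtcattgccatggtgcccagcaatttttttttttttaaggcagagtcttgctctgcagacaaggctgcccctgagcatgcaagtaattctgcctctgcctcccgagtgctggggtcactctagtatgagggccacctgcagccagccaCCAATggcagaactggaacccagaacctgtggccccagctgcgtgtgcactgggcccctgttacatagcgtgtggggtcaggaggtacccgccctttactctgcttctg
Anxa10: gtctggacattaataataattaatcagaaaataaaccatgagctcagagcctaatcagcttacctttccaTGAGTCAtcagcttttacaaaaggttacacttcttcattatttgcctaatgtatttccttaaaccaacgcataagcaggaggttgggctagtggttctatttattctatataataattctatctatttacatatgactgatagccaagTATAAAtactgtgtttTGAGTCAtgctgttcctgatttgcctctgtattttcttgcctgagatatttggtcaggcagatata

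A set of 8 motifs was searched on both strands, and none of them overlapped another in these windows. The TATA box, written TATAAA, lay at -31 in Muc1 and at -32 in Anxa10, counted from the start site to its first base, and 13.6% of all 32851 windows held it. The CCAAT box was found in Lgals4 (plus strand, from -59) and in Muc1 (minus strand, written ATTGG, from -156), against 37.4% of all windows. The motif TGAGTCA, the letters bound by AP-1, occurred at 2 places in Anxa10, from -180 and from -16, and 5.20% of all windows held it at least once. No exact match in the 3 windows was found for the GATA-type motif AGATAA (in 11.2% of all windows) or for its variant TGATAA (9.05%). The same held for the forkhead-type motif TGTTTAC (3.65%), its variant TGTTTGC (5.07%) and the E-box letters CACGTG (7.15%).

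The members fell into different patterns over the lines. Tff1, Tff2 and Muc1 were highest in KPC850, Muc5ac and Tff3 in KPC469, Lgals4 and Agr2 in KPC490, and Anxa10 in KPC180. KPC490, the line with the most Lgals4, had the least Tff1, Tff2 and Muc5ac, although its Tff2 and Muc5ac could not be told apart from those of KPC142 within counting error. KPC142 had the least Muc1 and was the next to lowest line for Tff1, Tff2, Muc5ac and Lgals4.

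**Figure D1:**
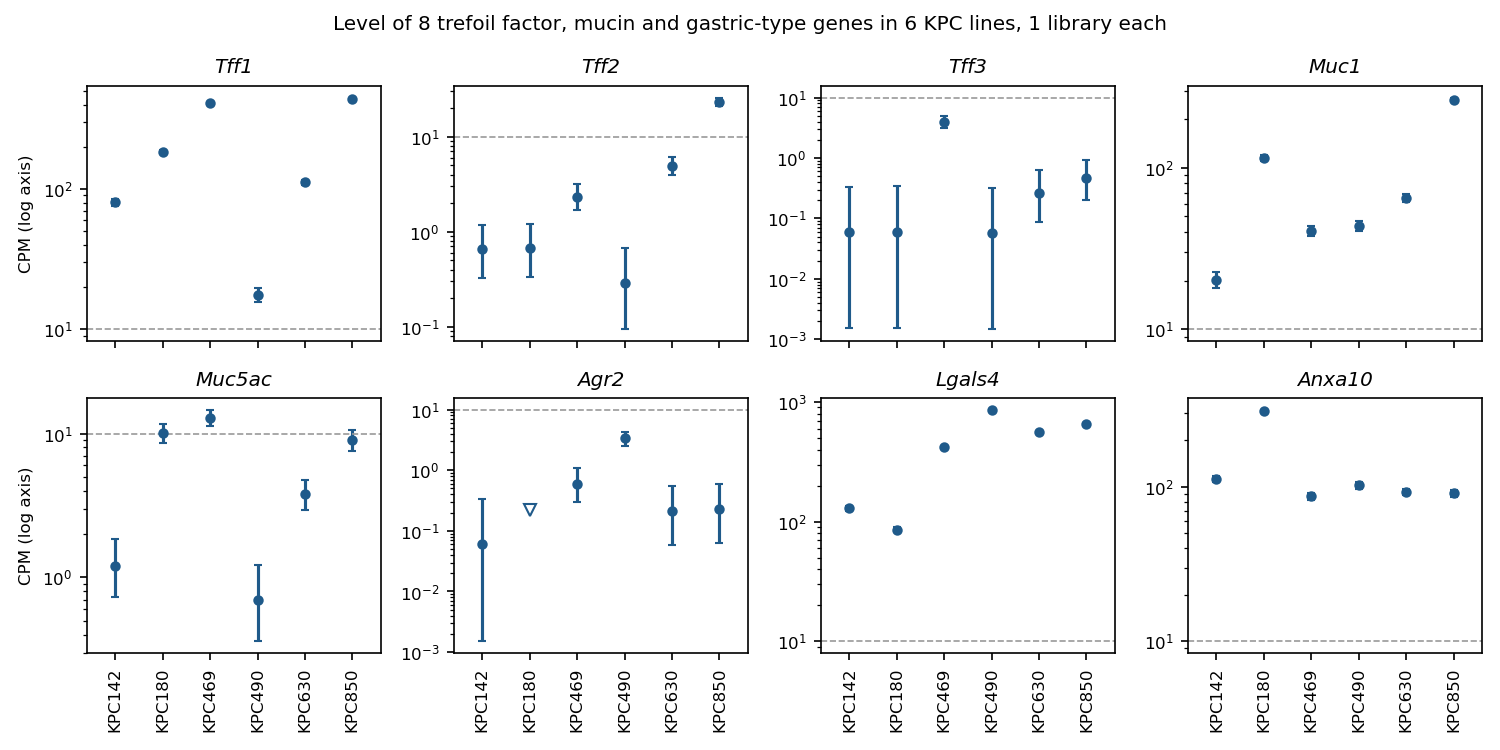
Level of each of the 8 genes in the 6 lines, in CPM on a log axis, with 1 library per line. Points are the values, bars are exact Poisson 95% intervals for counting error only, the open triangle is the upper limit where the count was 0, and the dashed line is 10 CPM. Tff1 spans 440.3 CPM in KPC850 to 17.5 CPM in KPC490, and Tff3 and Agr2 stay below 10 CPM in every line.

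Tff1, the trefoil factor of gastric pit cells, was the only trefoil gene above 10 CPM in all 6 lines. It stood at 440.3 CPM in KPC850, 410.5 in KPC469, 185 in KPC180, 112 in KPC630, 80.2 in KPC142 and 17.5 in KPC490, with a median of 148 CPM. KPC850 and KPC469 were high and close to each other, at a ratio of 1.07 (1.04 to 1.11), and KPC490 was low. In such bulk libraries, fewer cells that express a gene and less of its RNA per cell cannot be told apart. The ratio of KPC850 to KPC490 was 25.2 (22.4 to 28.4), or 4.65 log2 units. In KPC850 the gene ranked 329th among all genes by CPM, which is not adjusted for transcript length, and in KPC490 it ranked 7985th. An antisense gene, Gm15318, overlaps Tff1 on the opposite strand, and whether the counting used strand is not given in the sources used here. Gm15318 had 6.06 CPM in KPC850, 3.92 in KPC469 and 0.0581 in KPC490.

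Tff2, the trefoil factor of gastric neck and gland cells with a tandem pair of trefoil domains, was concentrated in KPC850. It had 23.4 CPM (402 counts) in KPC850, 4.95 (93) in KPC630, 2.34 (43) in KPC469, 0.668 (11) in KPC180, 0.659 (11) in KPC142 and 0.290 (5) in KPC490. KPC850 exceeded the next line, KPC630, by 4.73-fold (3.77 to 6.0) and KPC490 by 80.7-fold (34.3 to 249.9). Within counting error, KPC180 could not be told apart from KPC142, nor KPC142 from KPC490.

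Tff3, the trefoil factor of intestinal goblet cells, was nearly silent. It had 73 counts (3.98 CPM) in KPC469, 8 in KPC850, 5 in KPC630 and 1 in each of KPC490, KPC180 and KPC142. KPC469 was 8.53-fold (4.11 to 20.5) above KPC850, and the other 5 lines did not differ between neighbours in the order beyond counting error.

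The 3 trefoil genes lie next to each other on chromosome 17, in the order Tff3, Tff2, Tff1, between Abcg1 and Tmprss3. Their highest lines were not the same: KPC850 for Tff1 and Tff2, and KPC469 for Tff3. The flanking genes were low, with Tmprss3 at 0.175 CPM or less in every line. Abcg1, a sterol exporter gene, had 7.01 CPM in KPC142 and 0 counts in KPC469 and KPC850, the lines with the most Tff1. In KPC490, the line with the least Tff1, Abcg1 had 0.116 CPM, and it had 1.60 in KPC630 and 1.46 in KPC180.

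Muc1, the transmembrane mucin whose window is shown above, was expressed in every line. It had 264 CPM in KPC850, 115 in KPC180, 64.8 in KPC630, 43.5 in KPC490, 40.5 in KPC469 and 20.2 in KPC142, with a median of 54.2 CPM. KPC850 stood 2.30-fold (2.18 to 2.42) above KPC180, the next line, and 13.1-fold (11.7 to 14.7) above KPC142. KPC490 and KPC469 could not be told apart in Muc1 (ratio 1.07, 0.968 to 1.19), whereas Tff1 was 23.5-fold (20.9 to 26.4) higher in KPC469 than in KPC490.

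Of the genes beside Muc1 on chromosome 3, Trim46 lay between 13.4 and 20.3 CPM, and Thbs3, a thrombospondin, had 56.2 CPM in KPC630 and 8.03 in KPC142. Erbb2 and Egfr, receptors whose proteins are known to associate with MUC1, were expressed as well. Erbb2 ranged from 57.8 to 110 CPM, and Egfr had 89.2 CPM in KPC630 and 6.95 CPM in KPC142, its lowest line as for Muc1.

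Muc5ac, the gel-forming mucin of gastric pit cells, was low but varied widely. It had 12.9 CPM (237 counts) in KPC469, 10.1 (166) in KPC180, 8.98 (154) in KPC850, 3.78 (71) in KPC630, 1.20 (20) in KPC142 and 0.697 (12) in KPC490. KPC469, KPC180 and KPC850 were high, and KPC142 and KPC490 low. KPC469 exceeded KPC490 by 18.5-fold (10.4 to 36.4), and KPC180 and KPC850 could not be told apart (ratio 1.12, 0.896 to 1.41).

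Muc5ac lies in the mucin cluster of chromosome 7 between Muc2 and Muc5b. Muc5b, a gel-forming mucin of airways and glands, reached 2.80 CPM in KPC850 and 1.85 in KPC469 and stayed at 0.364 or less in the other lines. Muc2, the main mucin of intestinal goblet cells, stayed at 0.523 CPM or less. Of 12 further mucin genes listed, 9 were matched to a row, 0 of these reached 10 CPM, and 8 stayed under 1 CPM in every line.

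Over the 6 lines, log2 CPM of Tff1 and Muc5ac had a Pearson r of 0.923 (two-sided exact permutation p = 0.00556, adjusted 0.0111 over 2 pairs) and a Spearman rho of 0.829 (exact permutation p = 0.0583, adjusted 0.0583). Without KPC490 and KPC850, the lines farthest from the Tff1 median, r was 0.906 over the other 4 lines. With single lines left out, the adjusted exact permutation p was above 0.05 without KPC142 (0.0667), KPC490 (0.133) or KPC630 (0.0667), and it was 0.0333, 0.0333 and 0.0167 without KPC180, KPC469 and KPC850. For Tff1 with Tff2, Pearson r was 0.712 (exact permutation p = 0.101, adjusted 0.101) and Spearman rho was 0.829 (exact permutation p = 0.0583, adjusted 0.0583). Without the same 2 lines r was 0.196, so this relation rests on them. For Lgals4 and Anxa10 the lines fell into separate clusters, and no pooled value is given. Each of the other pairs listed had a gene without a matched row or under 10 CPM in every line. As the members were picked with earlier results of these data in view, the permutation p-values describe these pairs and are not tests of pairs fixed beforehand.

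Agr2, an endoplasmic reticulum protein of the disulfide isomerase family that helps mucins to fold, was nearly silent in these lines. It had 58 counts in KPC490, 11 in KPC469, 4 in KPC850, 4 in KPC630, 1 in KPC142 and 0 in KPC180. The 58 counts of KPC490 are 3.37 CPM, 5.62-fold (2.92 to 11.9) above KPC469 and at least 18.5-fold above KPC180, taking 3 counts as the floor of that library. Agr3, its neighbour and paralogue on chromosome 12, had 0 counts in all lines, and Spdef, a transcription factor of goblet and other secretory cells, stayed at 0.490 CPM or less.

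Lgals4, which encodes galectin-4, a lectin of the digestive epithelium that binds galactose-bearing sugars, was expressed in every line. It had 850.2 CPM in KPC490, 651 in KPC850, 561 in KPC630, 417 in KPC469, 129 in KPC142 and 85.7 in KPC180, with a median of 489 CPM. KPC142 and KPC180 were low, and the lowest of the other 4 lines, KPC469, was 3.23-fold (3.08 to 3.39) above KPC142. The ratio of KPC490 to KPC180 was 9.92 (9.39 to 10.5). In KPC490 Lgals4 ranked 121st among all genes by CPM, again not adjusted for transcript length.

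Ech1, the neighbour of Lgals4 on chromosome 7, was also highest in KPC490, at 97.5 CPM, but its lowest value was 46.4 CPM, in KPC142. Lgals7, the neighbour on the other side, reached 0.408 CPM at most. Among the other galectins, Lgals1 had 1042 to 2355 CPM and Lgals3 501 to 1067 CPM, and Lgals2 had 1377 CPM in KPC850 and 78.7 in KPC630. Lgals2 and Lgals4 thus had different highest lines. The list held 9 genes, among them Lgals3bp, which encodes a galectin-binding protein and not a galectin. Of the 9, 8 were matched to a row and 6 reached 10 CPM. Of these 6, 2 had a 4-fold range between their highest and lowest line, Lgals2 and Lgals3bp, against 15.4% of all genes at that level.

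Anxa10, a member of the annexin family typical of gastric epithelium, varied least of the 8 genes. It had 308 CPM in KPC180, 112 in KPC142, 102 in KPC490, 93.1 in KPC630, 90.9 in KPC850 and 86.6 in KPC469. KPC180 stood apart, 2.75-fold (2.61 to 2.90) above KPC142 and 3.56-fold (3.36 to 3.77) above KPC469, while KPC630, KPC850 and KPC469 did not differ between neighbours in the order beyond counting error. In KPC180 Anxa10 made up 43.7% of the summed counts of the 8 genes, against 6.14% in KPC850. Palld, which encodes an actin-binding protein and lies near Anxa10 on chromosome 8, had 134 CPM in KPC490 and 5.81 in KPC142 and did not share this order.

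Summed over the 8 genes, KPC850 had the most RNA of this group (1479 CPM, 1461 to 1498) and KPC142 the least (344 CPM, 335 to 353). KPC490 had 1018 CPM, KPC469 974, KPC630 839 and KPC180 705. The make-up differed more than the sum: Lgals4 contributed 83.5% in KPC490 and 12.2% in KPC180, and Tff1 contributed 42.1% in KPC469 and 1.72% in KPC490. Without Lgals4 and Anxa10, the sum was 738 CPM in KPC850, the highest line, and 65.4 CPM in KPC490, the lowest. In that smaller sum Muc1 held 66.5% of the counts in KPC490 and 8.61% in KPC469, and Tff1 held 26.7% and 87.2% in the same lines. Shares of counts grow with transcript length as well as with the number of transcripts.

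**Figure D2:**
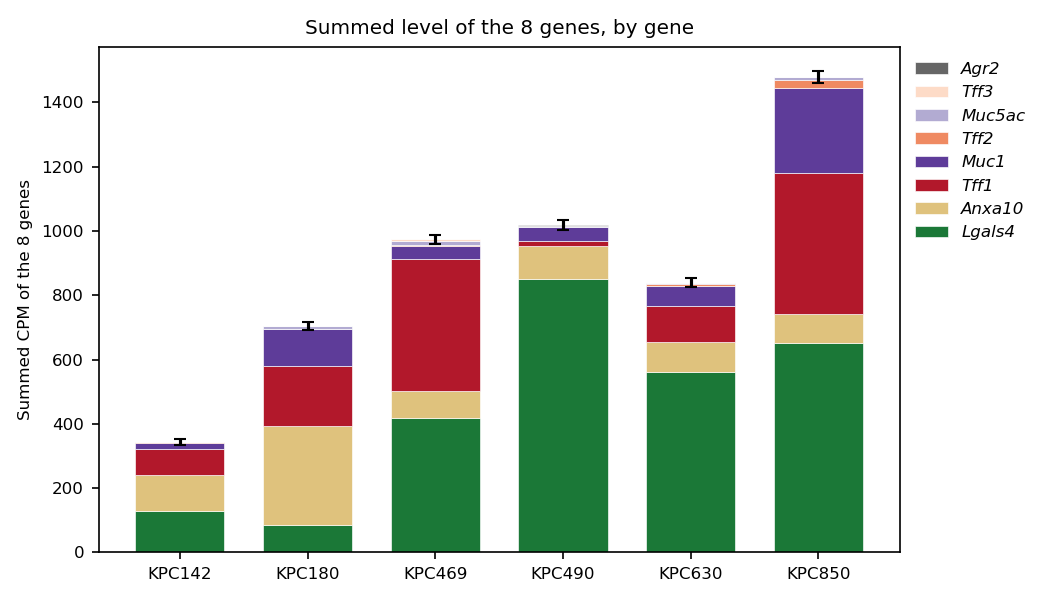
Summed CPM of the 8 genes in each line, stacked by gene. Black bars are exact Poisson 95% intervals of the summed counts, for counting error only. KPC490 and KPC469 reach similar sums, 1018 and 974 CPM, and Lgals4 makes up 83.5% of the sum in KPC490 and 42.8% of that in KPC469.

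Levels of different genes can be set side by side only per length, here as CPM per kb of the longest annotated protein-coding transcript. On this scale the level of Tff1 (0.703 kb) was the highest of the 8 genes in 4 lines, KPC850, KPC469, KPC180 and KPC142, and that of Lgals4 (1.38 kb) in KPC490 and KPC630. In KPC850 Tff1 had 626 CPM per kb, followed by Lgals4 with 470.3 and Muc1 with 118. In KPC490 Lgals4 had 614 CPM per kb and Tff1 24.9. Muc5ac, with a transcript of 10.8 kb, reached 1.20 CPM per kb in KPC469, its highest line, where Tff1 had 584. The scale takes no account of fragment size, which bears most on transcripts as short as those of the trefoil factors.

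Of the 8 genes, 6 had at least 10 CPM in at least 1 line: Tff1, Tff2 (in KPC850 only), Muc1, Muc5ac, Lgals4 and Anxa10. Of these 6, 5 differed at least 4-fold between their highest and lowest line on log2 CPM with a prior count of 2, against 15.4% of the 10234 genes at that level. The exception was Anxa10, at 1.83 log2 units. The median range of the 6 was 3.85 log2 units, against 0.929 over all 10234 genes. Tff3 and Agr2, below 10 CPM in every line, also had a range of 4-fold or more, but on at most 73 counts. As the genes were picked with earlier results in view, the higher share describes them and is not a test.

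**Figure D3:**
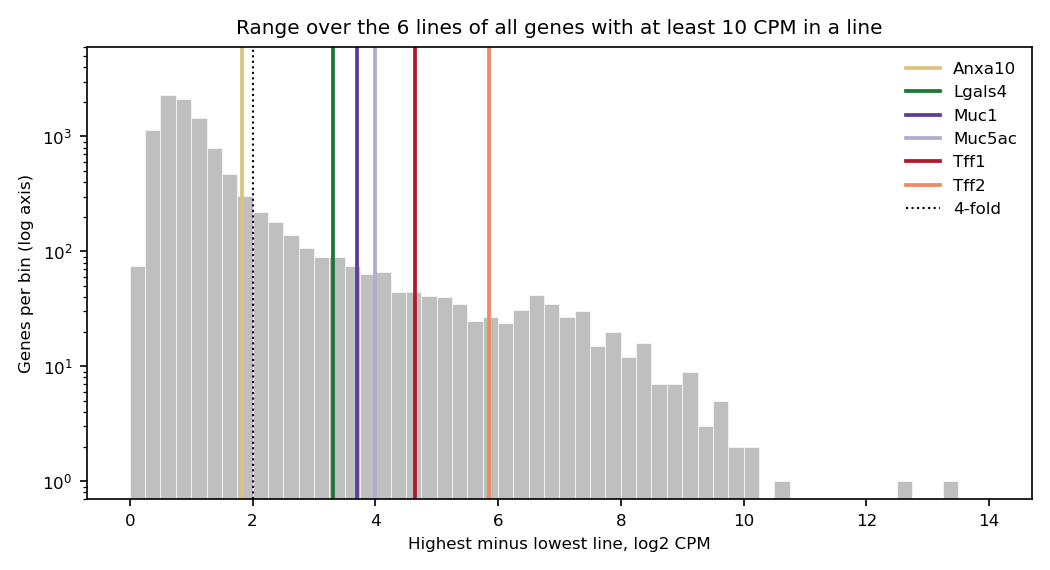
Number of genes (log axis) by the difference between the highest and the lowest line in log2 CPM, for the 10234 genes that reached 10 CPM. Coloured lines mark the 6 members at that level and the dotted line a 4-fold range. Of these members 5 lie to the right of the dotted line, from 3.31 for Lgals4 to 5.86 for Tff2, and Anxa10 lies at 1.83.

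Of the same 6 genes, KPC850 was the highest line for 3, Tff1, Tff2 and Muc1, against 15.0% of all genes at 10 CPM. Tff2 reached 10 CPM only in KPC850 (23.4 CPM, against 4.95 in the next line). Its highest line was therefore fixed by that level and adds nothing to the count. KPC490 was the lowest line for 3, Tff1, Tff2 and Muc5ac, against 11.8% of all genes. Only for Tff1 was it below the next line, KPC142, beyond counting error. The ratio of KPC142 to KPC490 was 2.27 (0.727 to 8.33) for Tff2 and 1.72 (0.801 to 3.86) for Muc5ac. KPC180, KPC469 and KPC490 were the highest line for 1 gene each, Anxa10, Muc5ac and Lgals4 (16.0%, 21.4% and 15.3% of all genes), and KPC142 and KPC630 for 0 of the 6 (18.2% and 14.0%). KPC142, KPC180 and KPC469 were the lowest line for 1 gene each, Muc1, Lgals4 and Anxa10 (22.2%, 16.5% and 20.0% of all genes), and KPC630 and KPC850 for 0 (13.6% and 15.9%).

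Pairs of lines were also compared, the pairs named here being chosen after their values were seen. KPC490 and KPC630 were the closest pair of all 15, with 2.58% of the 10234 genes 4-fold or more apart, yet 3 of the 6 members, Tff1, Tff2 and Muc5ac, were. For these 3 genes KPC630 was the higher line, with Tff1 6.38-fold (5.65 to 7.22) higher in KPC630 than in KPC490. KPC469 and KPC850 were the most distant pair by this share, with 7.37% of genes 4-fold or more apart, and 2 of the 6 members, Tff2 and Muc1, were. The median absolute difference of the 6 members between KPC469 and KPC850 was 0.581 log2 units, the smallest of the 15 pairs, while over all genes it was 0.404. By that median over all genes they were not the most distant pair, as KPC142 and KPC490 had 0.415. Between KPC142 and KPC850, 5 of the 6 members differed by 4-fold or more, against 4.92% of all genes.

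Other gastric-type products were chosen as a list of 18 genes, of which 9 reached 10 CPM and 8 of these 9 had a 4-fold range, against 15.4% of all genes at 10 CPM. Their median range was 5.06 log2 units, against 0.929 over all genes. Cldn18, a tight-junction protein of stomach epithelium, was at 361 CPM or more in 4 lines, against 1.75 CPM in KPC850, the line with the most Tff1, Tff2 and Muc1, and 1.32 CPM in KPC142. Ctse, the aspartic protease cathepsin E of gastric pit cells, was highest in KPC180 with 437 CPM and lowest in KPC142 with 21.6, a ratio of 20.2 (18.2 to 22.5). Dmbt1, a secreted scavenger protein that binds mucosal microbes and trefoil factors, had 109 CPM in KPC850 and 1.34 in KPC180. Ceacam1, a cell adhesion molecule, had 66.0 CPM in KPC490 and 1.56 in KPC142, and Sult1c2, a sulfotransferase, had 45.1 CPM in KPC850 and 0.479 in KPC630. The gastrokine genes Gkn1 and Gkn2, markers of gastric pit cells, were low and highest in KPC850, at 5.30 and 6.65 CPM. Aqp5 had 665 CPM in KPC630, 509 in KPC142 and its lowest value, 19.8, in KPC850, and Psca had 27.6 CPM in KPC469 and 2.27 in KPC850. Of the 9 genes, KPC850 was the highest line for 4 and the lowest for 1, against 15.0% and 15.9% of all genes at 10 CPM. Sult1c2, 1 of these 4, reached 10 CPM only in KPC850, so its highest line was fixed by that level. KPC142 was the lowest line for 4 of the 9 genes, against 22.2% of all genes at 10 CPM.

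Enzymes that attach and extend mucin sugars were a list of 24 genes, of which 16 reached 10 CPM. Of these 16, 5 had a 4-fold range (15.4% of all genes), and the median range was 1.56 log2 units (0.929 over all genes). Galnt3 and Galnt4, which start O-linked chains, were highest in KPC490 (65.0 and 133 CPM) and lowest in KPC142 (10.5 and 20.3 CPM). Fut2, which adds the terminal fucose of blood-group sugars on mucins, was also highest in KPC490, at 22.4 CPM, with 11.0 in KPC630, 10.7 in KPC850, 3.65 in KPC469, 2.22 in KPC142 and 0.121 in KPC180. Gcnt3, the branching enzyme of mucin-type cells, had 235 CPM in KPC850 and 26.4 in KPC142. KPC490 was thus highest for Galnt3, Galnt4 and Fut2 and lowest for Muc5ac, though within counting error of KPC142 in Muc5ac. Over the 16 enzymes, KPC490 was the highest line for 4 and the lowest for 2, against 15.3% and 11.8% of all genes at 10 CPM.

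Of 26 genes for secretory folding and for regulators of gastric and pancreatic epithelium, 19 reached 10 CPM and 12 had a 4-fold range (15.4% of all genes), with a median range of 2.32 log2 units (0.929 over all genes). Ern2, the stress sensor of mucus-secreting epithelium, had 17.7 CPM in KPC850 and at most 2.67 in the other lines. Foxa1, a forkhead factor of foregut epithelium, had 69.6 CPM in KPC490 and 3.06 in KPC142, and Foxa3 was highest in KPC180, at 11.3 CPM. Sox2, a factor of the developing foregut and the stomach, had 80.2 CPM in KPC469, 34.8 in KPC142 and 2.0 or less in the other 4 lines. Between KPC469 and KPC142, the lines with the most Sox2, Tff1 was 5.12-fold (4.83 to 5.43) higher in KPC469. The zinc finger factors Klf4 and Gata5 were highest in KPC850, with 296 and 150.2 CPM, and lowest in KPC469, with 32.7 and 14.1 CPM.

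Intestinal genes were a list of 16, of which 6 reached 10 CPM and all 6 had a 4-fold range, against 15.4% of all genes, with a median range of 3.91 log2 units, against 0.929. Cdx2, the master regulator of intestinal identity, had 103 CPM in KPC490, 62.9 in KPC630, 41.0 in KPC850, 18.2 in KPC142, 8.99 in KPC469 and 7.83 in KPC180. Clca1, a secreted protein of goblet cells, had 18.2 CPM in KPC490, 14.7 in KPC630, 14.6 in KPC850, 4.20 in KPC469, 1.86 in KPC142 and 0.364 in KPC180. Both were highest in KPC490 and lowest in KPC180, as was Lgals4, and the other 4 intestinal genes at 10 CPM had other orders. Cdh17, an intestinal cadherin, had 723 CPM in KPC490, its highest line, but 635 CPM in KPC180 and its lowest value, 89.4 CPM, in KPC469. Vil1, the actin-binding protein villin of microvilli, had 135 CPM in KPC142 and 21.2 in KPC469, and Lgals2 had its highest value in KPC850 and 400.4 CPM in KPC180. Atoh1, Reg4 and Zg16, further genes of goblet and other secretory cells of the gut, stayed under 1 CPM in every line. Krt20, a keratin of mature gut epithelium, had 621 CPM in KPC850, 416 in KPC180 and 25.3 in KPC469.

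**Figure D4:**
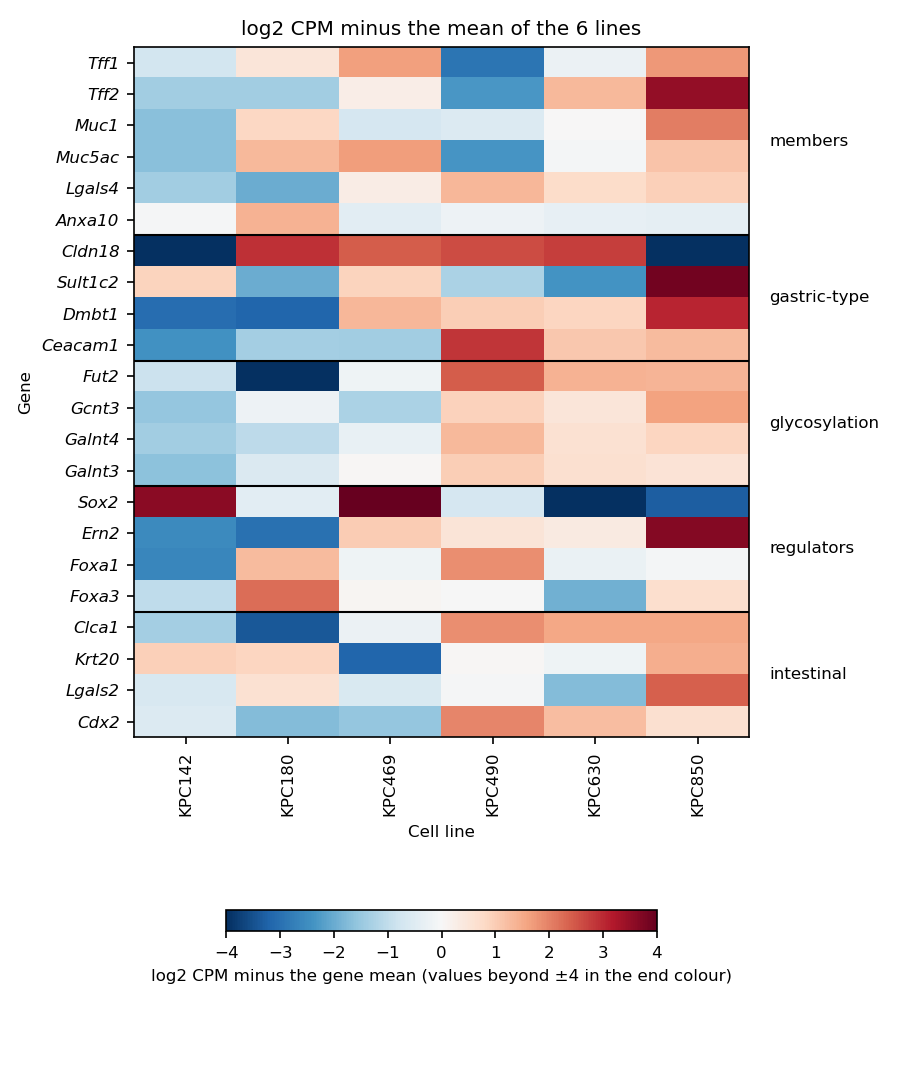
Level of the 6 members that reached 10 CPM and of the most variable genes of 4 lists (rows) in the 6 lines (columns), as log2 CPM minus the mean of the gene over the lines. Red is above and blue below that mean, and values beyond 4 units take the end colour. Lgals4, Clca1 and Cdx2 are highest in KPC490 and lowest in KPC180, and Tff1, Tff2 and Muc5ac are lowest in KPC490. For Tff2 and Muc5ac, KPC490 cannot be told apart from KPC142 within counting error.

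The genes whose log2 CPM over the 6 lines was most like each of the 5 members with a 4-fold range were taken from 1567 other genes with a symbol, 10 CPM or more in a line and a 4-fold range. With 6 lines and so many genes, high values of r arise readily, and they are given as a description without a p-value. The Lgals4 pattern was closest to Clca1 (r = 0.967), Pkdcc (0.966) and Kif21a (0.966), and Kif21a, a kinesin, had 10.4 to 16.1 CPM in 4 lines and 0 counts in KPC142 and KPC180. In Lgals4 the lines fall into separate clusters, with KPC142 and KPC180 at 129 and 85.7 CPM and the other 4 lines at 417 or more. These r values therefore carry that split and do not show a graded likeness. The Tff1 pattern was closest to Ltbp2 (r = 0.948), Alpk1 (0.946) and Muc5ac (0.923). Ltbp2, a protein of elastic fibres, was also the closest to Muc5ac (r = 0.944), followed by P4ha3 (0.936) and Rab38 (0.935), while Tff1 was the fifth closest. The Tff2 pattern was closest to Gstm2 (r = 0.95), Ccdc141 (0.947) and Dtx3l (0.926). For Muc1 the closest were Gmpr (r = 0.965), the transcription factor gene Tfcp2l1 (0.948) and Syt8 (0.945), with Tfcp2l1 at 145 CPM in KPC850, 56.7 in KPC180 and 10.2 in KPC469.

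Pcdh7, the protocadherin gene named in the title of the study, had 132 CPM in KPC850 and 0.109 CPM in KPC469. The value in KPC469 rests on 2 counts. These lines had the highest Tff1 levels of the 6, and so the extremes of Pcdh7 fell on lines that were alike in Tff1. They were not alike in Muc1 (264 CPM in KPC850 and 40.5 in KPC469) or in Tff2 (23.4 and 2.34). KPC180, next to KPC850 in Pcdh7 with 109 CPM, was also the next line in Muc1, with 115 CPM. The remaining lines did not share an order. Pcdh7 had 47.6 CPM in KPC490, 4.31 in KPC142 and 3.78 in KPC630, and Muc1 had 43.5, 20.2 and 64.8 CPM in the same lines. A relation of Pcdh7 to these genes was not tested.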

How the data were processed

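The kit for the 6 libraries selected mRNA and retained strand, per the labels' protocols. RSEM 1.3.3, STAR 2.7.10b and Trimmomatic 0.36 are listed, with the build GRCm39 and without settings, per the submitters' processing notes. The authors deposited expected counts, in which RSEM shares ambiguous reads among transcripts. Between 5.28% and 5.66% of values per library were fractional, and all were rounded to whole numbers.

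TMM factors (0.986 to 1.01) came from edgeR 4.0.16 in R 4.3.3, over the 11531 genes kept by filterByExpr. log2 CPM had a prior count of 2. Ratios have exact conditional binomial intervals and single counts exact Poisson intervals, at 95%. A line with 0 counts was given a floor of 3 counts in that library (0.160 to 0.182 CPM). Without replicates or classes no edgeR or DESeq2 test was run.

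Symbols came from GENCODE vM21 (GRCm38), which named 52029 of the 56953 genes. Transcript lengths and gene order are also from vM21, and no gene coordinate is given from it. No other vM21 transcript matched a member at 90% identity or more over 200 bases or more. The calculations were tested on simulated data.

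Named genes were all members, up to 4 genes of each list with the largest range, the 3 genes most like each member, and Pcdh7. Members and lists were chosen with earlier results of these data known. Ctse, Aqp5, Psca, Gkn1, Gkn2, Klf4, Gata5, Agr3, Spdef, Muc2, Muc5b, Lgals1, Lgals3, Lgals7, Ech1, Cdh17, Vil1, Atoh1, Reg4, Zg16, Abcg1, Tmprss3, Trim46 and Gm15318 were named after their values were seen.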

Additional observations from a re-analysis of the deposited data

How the results depend on the processing

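The number of members with a range of 4-fold or more stayed within 1.5 times of 5 under every alternative. It was 5 of 6 with DESeq2 size factors, with library totals alone, with expected counts as deposited and with prior counts of 0.5 and 5. With each line but KPC850 left out it was also 5 of 6, and over all these settings the share of all genes was 11.4% to 15.5%. It was 4 of 5 without KPC850 (13.7% of all genes) and 7 of 8 with a floor of 1 CPM or no filter (25.6% and 20.3% of all genes). With filterByExpr, which drops Tff2, it was 4 of 5 (13.2% of all genes), and at 2-fold 6 of 6 (44.9% of all genes). Which lines were highest and lowest, and the sums, did not move beyond counting error with other size factors. The range of Agr2 was 3.67 to 6.89 log2 units over the prior counts tried, and that of Tff3 3.63 to 5.53. The r of Tff1 and Muc5ac was 0.866 to 0.963 with each line left out. Its adjusted exact permutation p was above 0.05 without KPC142 (r = 0.963, adjusted 0.0667), KPC490 (r = 0.866, adjusted 0.133) and KPC630 (r = 0.924, adjusted 0.0667). Without KPC142 or KPC630, r was no lower than the 0.923 over all 6 lines. With 1 line fewer there are also fewer pairings, so the exact permutation p is coarser. The cause of each change was not tested. No paired analysis was possible because each line has 1 library and the labels give no replicate numbers.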
